A study of Homo sapiens with 43 samples.

Results

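The 4 peak lists described here map RNA polymerase II phosphorylated at serine 2 of its C-terminal repeats (Ser2P) in SUDHL5, an established line of diffuse large B-cell lymphoma. They were taken by their labels: 2 lists from cells given 30 nM CDK-TCIP1 for 2 h and 2 lists from cells given DMSO (0.1%) for 4 h, out of 33 peak lists in a series of 43 samples. CDK-TCIP1 is a bivalent molecule made to bring the kinase CDK9 to sites of the repressor BCL6. DMSO was collected at 4 h only, so the groups differ in treatment and also in time, and these cannot be told apart. Both groups were precipitated with antibody ab5095, and the labels name no genetic change in either. The labels do not say that lists of a group came from separate cultures, so p-values measure only the spread between these lists, which may be technical.

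As background, CDK9 is the kinase of the elongation factor P-TEFb and acts on paused polymerase near gene starts, and together with CDK12 and CDK13 it places phosphate on serine 2. The mark is known for being low at promoters and for building up through the gene body, with its highest level past the polyadenylation site, where it helps to recruit 3′ end processing and termination factors. Serine 5 phosphorylation (Ser5P), in contrast, is known for marking polymerase at gene starts. In germinal-centre B cells BCL6 keeps genes of arrest, cell death and plasma cell differentiation repressed.

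A peak list gives places where the signal passed the authors' threshold, with no read totals. The sequencing depth is therefore unknown, and the number of peaks is the only total per list. The DMSO lists held 28951 and 16593 peaks and the treated lists 6519 and 16170. All 4 lists differed in length, treated list 1 was the shortest, and the replicate 2 lists were of similar length. In a bulk culture, fewer cells carrying the mark at a place and less mark per cell cannot be told apart. Of 6 B-cell markers (among them MS4A1, CD79A, CD79B, PAX5 and CD22), 6, 6, 5 and 6 had a peak in DMSO lists 1 and 2 and treated lists 1 and 2. Of 4 germinal-centre markers 3 had one in every list, and LMO2 had none. Of 6 myeloid markers 2, 1, 0 and 0 had a peak (CSF1R, MPO), with a summed 2.16, 0.649, 0 and 0 kb, and CD14, LYZ, ITGAM and S100A8 had none. A longer list of 11 myeloid genes had 3, 2, 1 and 1 with a peak, since CD68, a lysosomal protein of macrophages, had 4.26, 4.56, 3.05 and 3.47 kb. Of 9 T-cell markers 3, 1, 1 and 2 had one (CD3E, CD4, LCK), and 6 genes of other tissues had none in any list. The part of these markers in the results was not tested.

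The sequences below show starts of genes on which the results turn: a start that kept its peak while the 3′ end lost it (PAX5, RASSF6), a start that had a peak in the treated lists alone (FH), and a start under a peak in every list at an apoptosis gene (BCL2L11). Each is the 250 bases before the listed start in RefSeq (GRCh38.p14), 5′ to 3′ on the gene's strand. Capitals mark TATAAA, the TATA box letters, or GGGCGG, a GC box, on either strand; they do not overlap each other. PAX5 lies at chr9:37034269-37034518 (minus strand), RASSF6 at chr4:73620632-73620881 (minus), FH at chr1:241519756-241520005 (minus) and BCL2L11 at chr2:111120664-111120913 (plus).
PAX5: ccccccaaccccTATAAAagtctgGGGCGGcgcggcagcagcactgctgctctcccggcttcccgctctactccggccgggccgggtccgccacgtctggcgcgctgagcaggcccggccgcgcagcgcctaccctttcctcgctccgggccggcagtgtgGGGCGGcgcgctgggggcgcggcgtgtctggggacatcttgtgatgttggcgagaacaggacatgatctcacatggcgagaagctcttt
RASSF6: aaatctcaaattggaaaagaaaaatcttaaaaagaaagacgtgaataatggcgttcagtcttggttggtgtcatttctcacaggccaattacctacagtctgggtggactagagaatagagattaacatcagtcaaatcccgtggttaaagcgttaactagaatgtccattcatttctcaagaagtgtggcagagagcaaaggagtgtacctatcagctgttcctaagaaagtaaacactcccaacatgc
FH: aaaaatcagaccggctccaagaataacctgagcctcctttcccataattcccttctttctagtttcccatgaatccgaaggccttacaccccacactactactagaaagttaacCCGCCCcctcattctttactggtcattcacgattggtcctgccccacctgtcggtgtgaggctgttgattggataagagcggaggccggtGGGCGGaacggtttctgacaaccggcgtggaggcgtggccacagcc
BCL2L11: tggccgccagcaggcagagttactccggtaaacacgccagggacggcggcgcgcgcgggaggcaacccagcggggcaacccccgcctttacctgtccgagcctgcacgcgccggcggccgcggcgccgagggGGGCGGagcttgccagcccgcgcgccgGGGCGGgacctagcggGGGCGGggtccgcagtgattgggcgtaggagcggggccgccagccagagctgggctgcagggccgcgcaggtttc

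The PAX5 window held 1 TATAAA and 2 GGGCGG, FH held 2 GGGCGG, BCL2L11 held 3 GGGCGG, and RASSF6 held neither. Over 22156 such windows of protein-coding genes, 9.0% held TATAAA and 53.7% held GGGCGG. TTCCTNGAA, a spelling of the letters BCL6 is known to bind, was in none of the 4 windows and in 1.17% of all of them. These matches describe the letters only. Ser2P peaks covered all 250 bases in every list at PAX5 and BCL2L11. At FH they covered 0 bases in both DMSO lists and 69 and 60 bases in the treated lists. At RASSF6 they covered 250 and 62 bases in DMSO and 0 and 250 in the treated lists, so there the groups overlapped.

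The first comparison asked where along genes Ser2P peaks lay. A larger share of treated than of DMSO peaks lay at gene ends, within 1 kb of either end of a protein-coding gene, and a smaller share lay in gene bodies. The share at gene ends was 34.1% and 40.3% in DMSO lists 1 and 2 and 51.4% and 50.2% in treated lists 1 and 2. Both treated lists were above both DMSO lists, and the means were 37.2% ± 4.40 and 50.8% ± 0.881 (SD, n = 2 each), 13.6 percentage points apart. The share in gene bodies was 52.1% and 46.5% in DMSO and 36.8% and 37.6% in the treated lists, 12.1 points lower on average. The share outside genes was 13.8% and 13.1% in DMSO against 11.8% and 12.2%. An exact two-sided permutation test over the lists gave p = 0.3333 for each of the 3 shares, the smallest value that 2 against 2 lists allow. Position moved with rank within a list: with the 6519 best peaks by q taken from every list, the shares at gene ends were 56.4%, 54.3%, 51.4% and 68.8%, and the groups overlapped.

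**Figure D1:**
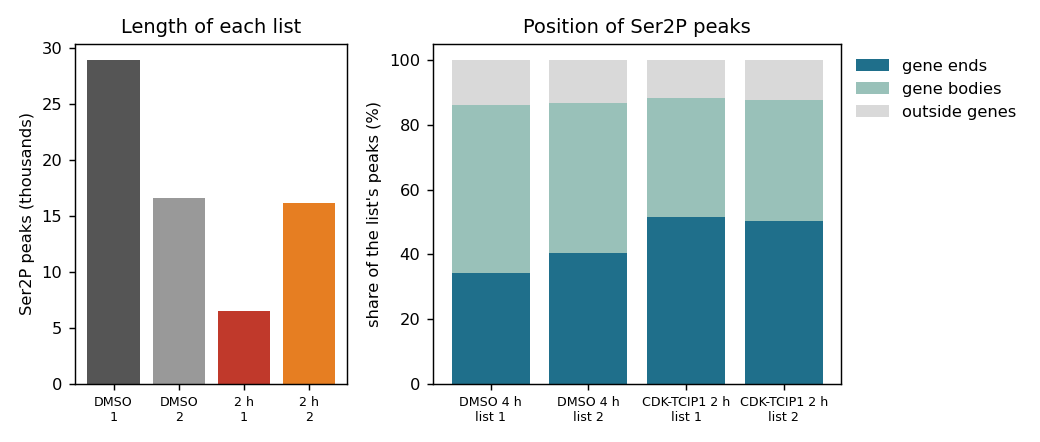
Left, the number of Ser2P peaks in each list. Right, the share of each list's peaks (%) at gene ends, in gene bodies and outside genes: gene ends hold 34.1% and 40.3% in DMSO and 51.4% and 50.2% after 2 h of CDK-TCIP1.

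Splitting the gene ends into start and 3′ end, where a RefSeq promoter table gave the strand (15812 of 19974 genes), showed on which side the cover lay. Of all bases under peaks within 1 kb of a gene end, the start side held 66.5% and 65.7% in DMSO and 73.1% and 77.8% in the treated lists. The treated lists were both higher, at 75.5% ± 3.29 against 66.1% ± 0.553 (SD, n = 2 each), a difference of 9.40 points (exact permutation test, two-sided, p = 0.3333). With equal numbers of top peaks the shares were 66.4%, 65.6%, 73.1% and 79.7%, so here the difference was as large at equal list length. It was also seen over 6593 genes with no other protein-coding gene within 6 kb, at 77.8%, 75.8%, 81.8% and 87.7%. The 4 h CDK-TCIP1 lists, which are compared with the same DMSO lists, had 75.7% and 80.3%.

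Ser5P, mapped in the same line and times, had start side shares of 75.8% and 79.6% in DMSO and 83.8% and 86.4% after 2 h. Its start side share was 7.37 points higher after treatment. The Ser2P difference exceeded the Ser5P difference by 2.02 points, and permuting labels within each target gave an exact two-sided p of 0.833 (smallest possible 0.0556 over 36 relabellings). A difference particular to Ser2P was thus not shown. In total polymerase lists the start side share was between 88.3% and 91.4% in DMSO and between 91.5% and 92.5% after 2 h.

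**Figure D2:**
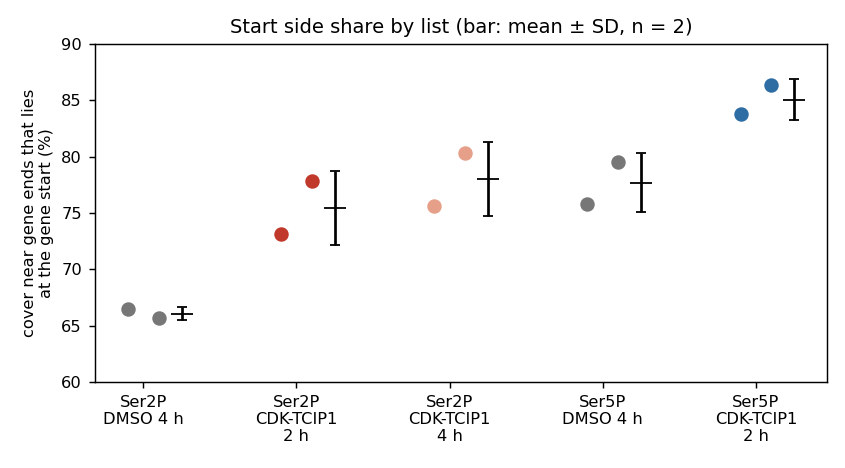
Share of covered bases near gene ends that lies at the gene start (%), 1 point per list, with mean ± SD (n = 2) beside each pair; the axis starts at 60%. Both treated Ser2P lists (73.1% and 77.8%) lie above both DMSO lists (66.5% and 65.7%), and the Ser5P lists show a higher share after treatment as well.

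Cover along the gene was then averaged over 13914 genes of at least 4 kb with a known strand. In DMSO the profile had a sharp peak at the start and a broad, lower one past the gene end. Over these genes the higher cover at starts was thus already present in DMSO. This order differs from the background given above, though peak cover does not measure the level of the mark. In the last 500 bp before the start, 19.4% and 14.4% of bases were under a peak in DMSO and 5.90% and 21.8% in the treated lists, so the groups overlapped there. From 1 to 3 kb past the gene end the values were 8.02% and 5.74% in DMSO and 1.68% and 4.19% in the treated lists, both lower than either DMSO list. In the middle of genes cover was 2.87% and 1.81% against 0.598% and 1.48%. The ratio of start to 3′ cover, taken as the mean of the last 500 bp before the start and the first 5% of the gene over the stretch from 1 to 3 kb past the end, was 2.05 and 2.10 in DMSO and 3.16 and 4.32 after treatment. In the 4 h lists it was 3.50 and 5.18.

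**Figure D3:**
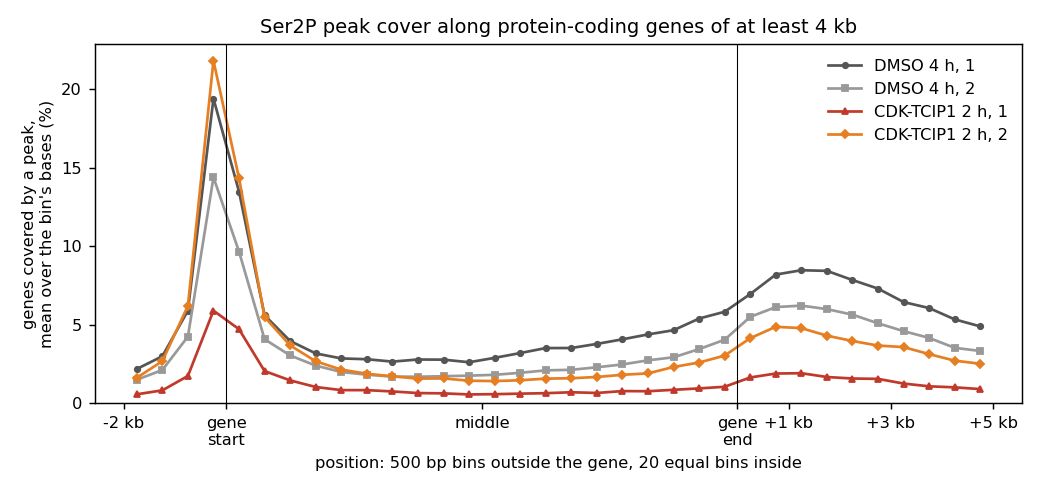
Percent of bases under a Ser2P peak along protein-coding genes, in 500 bp bins outside the gene and 20 equal bins inside, 1 line per list. Treated list 2 is highest before the gene start (21.8%), while both treated lists lie under both DMSO lists from 1 to 3 kb past the gene end.

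Genes of at least 100 kb (2757) separated the start from the far end. In their first 10 kb, cover was 1.95% and 1.29% in DMSO and 0.602% and 2.26% in the treated lists. In the 10 kb past their end it was 3.22% and 2.35% in DMSO and 0.636% and 1.59% after treatment. In the next 10 kb it was 1.80% and 1.20% against 0.366% and 1.07%. Thus both treated lists were below both DMSO lists in either stretch past the end, and not in the first 10 kb. They were also below in every 10 kb stretch from 10 to 100 kb after the start. At 10 to 20 kb the values were 0.372% and 0.251% in DMSO against 0.0489% and 0.208%. Both were lower too in the last 20 kb of the gene and from 20 to 40 kb past the end. Lower cover was therefore not confined to the far end.

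Genes were also counted by their windows. A start window (1 kb either side of the start) held a peak at 5481 and 4005 genes in DMSO and 2175 and 5507 in the treated lists, which overlap. A 3′ window (1 kb before to 5 kb past the gene end) held one at 3703 and 2699 genes in DMSO and 1158 and 2356 after treatment, which do not. Windows with a peak in both DMSO lists and no treated list (lost) numbered 524 of 13914 at the 3′ end (3.77%) and 167 at the start (1.2%). Windows with a peak in both treated lists and no DMSO list (gained) numbered 1 at the 3′ end (0.00719%), at NAV1, and 33 at the start (0.237%). Without treated list 1, the shortest, 625 start windows were gained and 185 lost, and 152 3′ windows were gained and 568 lost. Without treated list 2, more start windows (1765) than 3′ windows (1352) were lost, which turns the order. With equal numbers of top peaks, 253 start windows were gained and 63 lost, against 22 and 192 at the 3′ end. Start windows thus had more losses or more gains depending on the lists, while 3′ losses outnumbered 3′ gains in each of these settings. Between the replicate 2 lists, of 16593 and 16170 peaks, 93.2% of DMSO start windows kept a peak against 71.6% of DMSO 3′ windows. In that pair 1774 start windows had a peak in the treated list alone and 272 in DMSO alone, while at the 3′ end the numbers were 424 and 767. In the replicate 1 pair, where the treated list was far shorter, 38.2% of start and 30.7% of 3′ windows kept a peak, with 3389 start and 2566 3′ windows in DMSO alone. The replicate 2 pair was singled out after the values were seen and carries no test.

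**Figure D4:**
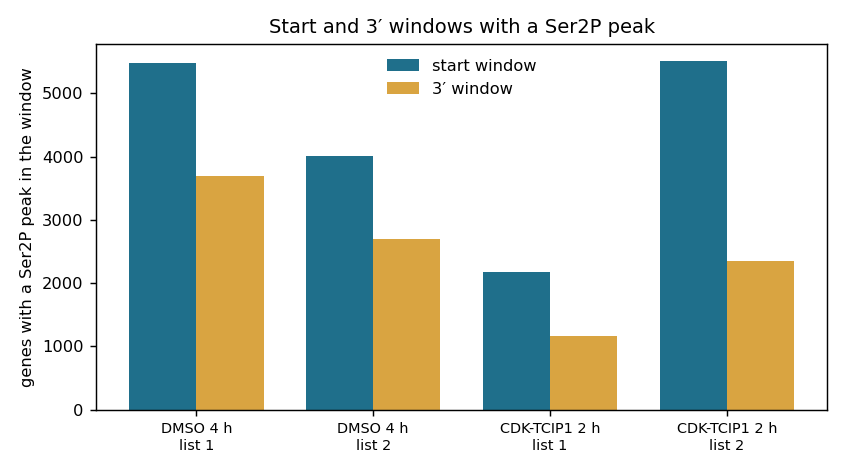
Number of genes with a Ser2P peak in the start window and in the 3′ window, for each list. The treated lists hold 1158 and 2356 3′ windows, fewer than both DMSO lists (3703 and 2699), while start windows overlap between groups.

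Among 804 genes with a start peak in all 4 lists and a 3′ peak in both DMSO lists, 132 (16.4%) had no 3′ peak in either treated list. In the opposite direction, of 662 genes with a 3′ peak in all 4 lists and a start peak in both DMSO lists, 14 (2.11%) had no start peak in either treated list. The 3′ window is the wider of the windows, and these shares were not computed at equal list length. For most of the 132 genes the 3′ peak had a mean DMSO rank beyond 6519, the number of peaks in treated list 1. At LAPTM5, for example, it was 6972. The part of list length in these shares was not tested. Of the 132 genes, 58 had a 3′ peak in neither 4 h list, 56 in 1 and 18 in both. The genes named from here to the end of the paragraph were chosen after their values were seen. At RASSF6 (chr4:73571550-73620631), a gene of the RAS-association domain family, 3′ cover was 1.02 and 1.64 kb in DMSO, 0 in both treated lists, and 0.323 and 0 kb at 4 h, with 1.09, 1.06, 0.577 and 1.75 kb at the start. At SERPINA9 (chr14:94462721-94476197), a serpin known as a germinal-centre B-cell marker, 3′ cover was 2.30 and 1.97 kb in DMSO, 0 after 2 h, and 1.05 and 0.318 kb at 4 h. SLC1A5, a glutamine transporter, had 3′ cover of 1.89 and 2.05 kb in DMSO and none after 2 h or 4 h. SASH3, a lymphocyte signalling adaptor, had 3.48 and 3.01 kb in DMSO and 0 after 2 h, with 0.790 and 0.958 kb at 4 h. Some members of the gene lists lost their 3′ window, counted here whether or not the start was kept. They were SUPT16H (a FACT subunit), NELFE (a pausing factor), HDAC7 and CTBP1 (corepressors), CCNG2, XBP1, TRAF1, MNT, LDHA, HSPA9 and PAX5. HDAC7 and CTBP1 had no start peak in treated list 1 and are not among the 132. No list had more than 2 such members, and over all genes 3.77% of 3′ windows were lost. The 14 genes of the opposite kind included PIK3CD, a B-cell PI3-kinase subunit, with 0.338 and 0.663 kb at its start in DMSO, 0 in both treated lists, and 5.10, 4.48, 3.398 and 4.29 kb at its 3′ end. TAP1, the peptide transporter of class I presentation, was another.

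At whole genes, counted over the span and 2 kb either side, 9683 and 7273 genes had a peak in DMSO and 4209 and 8752 after treatment. These overlapped (exact permutation test, two-sided, p = 0.667), and 3795 genes had a peak in all 4 lists while 9200 had none. Lost genes numbered 397 of 19974 (1.99%) and gained genes 27 (0.135%). Of the 27 gained genes, 15 had a peak in both 4 h lists, 10 in 1 and 2 in neither. Of the 397 lost genes, 133 had one in both 4 h lists, 127 in 1 and 137 in neither. Without treated list 1 the gains (640) outnumbered the losses (428), as they did with equal numbers of top peaks (327 and 186). Without DMSO list 1 there were 270 gains, and the losses were 1756 without DMSO list 2 and 3038 without treated list 2, so several single lists move these counts.

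The 10 gained genes of best rank had narrow cover. FH, fumarate hydratase of the citric acid cycle, had 0 kb in both DMSO lists and 0.279 and 0.342 kb in the treated lists, at its start. MRPS31, a mitochondrial ribosomal protein, had 0.309 and 0.487 kb. ABHD17B, a depalmitoylase, and C9orf85 share a divergent start with 0.318 and 1.26 kb in the treated lists. DNAJB5, a heat shock protein 40 family member, had 0.361 and 2.40 kb, and at 4 h 2.70 and 1.08 kb. CEBPZ had 0.328 and 0.789 kb, SMARCE1, a subunit of SWI/SNF remodelling complexes, 0.240 and 0.801 kb, and METTL4, a methyltransferase, 0.305 and 0.254 kb. LOC124905345 had 0.00900 and 0.630 kb, the first of which is the edge of a wider peak. At 4 h FH had 0.541 and 0 kb, MRPS31 0.529 and 0 kb, CEBPZ 0 and 0.805 kb and METTL4 0 and 0.475 kb. ABHD17B and C9orf85 had 1.80 and 0.727 kb there, SMARCE1 0.888 and 0.896 kb and LOC124905345 0.983 and 0.277 kb. None of these genes had cover in DMSO over the span and 2 kb either side, and each value in a 2 h list was at most 2.40 kb. The 3′ window of CEBPZ, which reaches 5 kb past the gene, had 0.602 and 0.33 kb in the DMSO lists.

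HRK (chr12:116856144-116881441, minus strand), a BH3-only promoter of apoptosis, was the gained member of the apoptosis list. Cover was 0 kb in both DMSO lists, 0.466 and 1.21 kb after 2 h and 3.38 and 2.61 kb in the 4 h lists. The cover lay inside the gene, at neither its start window nor its 3′ window: the strongest peaks were chr12:116860515-116860980 in treated list 1 and chr12:116858149-116858778 in treated list 2. CDK9 peaks of both antibodies were at HRK in 2 of 2 treated lists and 0 of 2 DMSO lists. Ser5P peaks were there in every list of DMSO and 2 h. The same CDK9 pattern was at CDKN1A, PRDM1, FOXO3 and MYC, which were not gained, and at LOC124905345 and MRPS31, which were. DNAJB5 and CEBPZ, also gained, had no CDK9 peak in these lists. Over all genes, 972 and 3346 had a CDK9 peak in DMSO and 5946 and 6142 after 2 h (ab239364). With CST2316S the numbers were 732 and 583 against 3495 and 3414.

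The 10 lost genes of best rank were MPIG6B, RFNG, ENAM, WBP1L, RAB24, TMEM161A, LRRC37A2, GOSR2, ABI3 and MAST1. TMEM161A, a membrane protein, had 3.86 and 2.16 kb in DMSO, 0 in both treated lists, and 0.763 and 0 kb at 4 h. ABI3, an adaptor of actin regulation, had 3.07 and 0.252 kb in DMSO. RFNG, a fringe glycosyltransferase that modifies Notch receptors, had 2.51 and 1.88 kb in DMSO, none after 2 h, and 0.264 kb in each list at 4 h. The widest DMSO peaks that reached its window were 11.1 and 5.87 kb and lay mostly outside it. LRRC37A2 and GOSR2 overlap and share their peaks. MPIG6B lost the cover within 2 kb of its span, while its 3′ window of 5 kb held a peak in all 4 lists. XIAP, an inhibitor of caspases, had 0.301 and 0.269 kb at its start in DMSO and 0 after 2 h.

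Where a peak was kept, the bases it covered were compared. Over the 3795 genes with a peak in all 4 lists, cover was lower in both treated lists than in both DMSO lists at 1437 genes (37.9%) and higher at 65 (1.71%), with a median log2 difference of -0.70. These genes passed only where every list had a peak. The group means of log2 median cover differed by -0.87 (exact permutation test, two-sided, p = 0.667), and within the replicate 2 lists these genes differed by 0.12 in the opposite direction.

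PAX5 (chr9:36833269-37034268, minus strand), the factor that sets B-cell identity, shows both sides of this. Cover over the gene was 58.0 and 29.6 kb in DMSO and 4.93 and 12.4 kb after treatment, a log2 difference of -2.41. At the start window it was 2.00 and 1.68 kb in DMSO and 1.65 and 2.00 kb after treatment. Its 3′ window had 1.64 and 1.31 kb in DMSO and none in either treated list or at 4 h. At the start, whose sequence is printed above, the groups overlapped, and over the whole gene they did not.

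The 10 genes with the widest cover in DMSO were chosen by the DMSO values, which favours lower values in the treated lists, so they are given as a description. ITPKB, an inositol trisphosphate kinase, had 81.2 and 86.3 kb in DMSO and 26.1 and 61.4 kb after treatment. PLCG2, the phospholipase below the B-cell receptor, had 81.4 and 78.0 kb against 19.98 and 51.5 kb. ST6GAL1, a sialyltransferase, had 43.5 and 41.6 kb against 4.21 and 12.4 kb, and its 3′ window was lost. POU2F2 (OCT2), a B-cell transcription factor, had 42.2 and 36.1 kb against 13.9 and 28.8 kb. IRAG2, SEPTIN9, LHPP, NEK6 and LRRK1 make up the rest with PAX5, and none of the 10 had cover in a treated list as wide as in either DMSO list. BCL6 itself (chr3:187721377-187745468) had 24.7 and 25.3 kb against 15.4 and 22.5 kb, with a log2 difference of -0.43 and a peak at both ends in every list.

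The genes whose cover was lower by the largest log2 difference were PEA15, PLEK, SEL1L3, NBEAL2 and HVCN1. SEL1L3 had 21.1 and 16.6 kb in DMSO and 0.289 and 2.19 kb after treatment (log2 difference -4.56). HVCN1, the voltage-gated proton channel of B cells, had 12.1 and 11.3 kb against 0.270 and 1.42 kb. PLEK had 8.17 and 7.50 kb against 0.350 and 0.276 kb, and no peak at 4 h. PEA15 had 11.9 and 9.74 kb against 0.0390 and 4.41 kb. The 0.0390 kb in treated list 1 is the edge of a peak of 0.361 kb, which enlarges the log2 difference. The 3′ window of PEA15, which reaches 5 kb past the gene, held a peak in all 4 lists. Cover there was 6 kb in each DMSO list and 0.361 and 3.24 kb after treatment. NBEAL2 had 14.2 and 7.70 kb against 0.248 and 1.17 kb. These values were chosen for their size and carry no test of their own.

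Cover was higher by the largest log2 difference at VAMP2, LOC124904417, LEMD3, IL17RA and PRKRA. LOC124904417 (chr1:150550290-150551350) had 2.11 and 1.18 kb in DMSO and 4.30 and 5.06 kb after treatment, and 4.91 and 4.79 kb at 4 h. Its strongest peak ranked 6609 and 11179.5 by q within the DMSO lists (ties share a mean rank) and 176 and 186 within the treated lists, and the lists differ in length. In the treated lists that peak ran past both ends of the gene, at chr1:150549405-150551576 and chr1:150547688-150554951. The cover can therefore not be assigned to LOC124904417 alone. A gained region outside genes, chr1:150545071-150546135, lay beside LOC124904417, 3.27 kb from ADAMTSL4. MCL1, the anti-apoptotic gene further along, had 6.10 and 7.07 kb in DMSO and 5.38 and 6.75 kb after treatment, which overlap. VAMP2, a SNARE protein, had 0.430 and 0.106 kb in DMSO and 0.844 and 1.45 kb after treatment. The widest DMSO peak reaching its window spanned 0.928 kb in list 1 and 1.025 kb in list 2, mostly outside the window. Treated list 1 had a widest peak of 0.844 kb and treated list 2 one of 1.402 kb. The DMSO cover of VAMP2 is thus cut by the window edge, which enlarges the log2 difference.

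**Figure D5:**
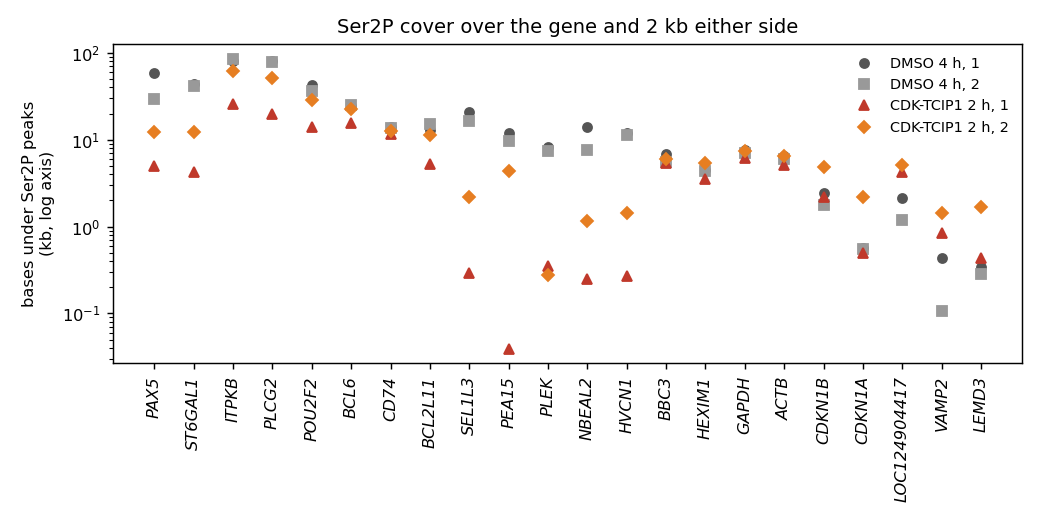
Bases under Ser2P peaks over the gene and 2 kb either side, in kb on a log axis, 1 symbol per list. PAX5, ST6GAL1, SEL1L3 and HVCN1 are lower in both treated lists, GAPDH, ACTB, BBC3 and HEXIM1 overlap between groups, and LOC124904417, VAMP2 and LEMD3 are higher in both treated lists.

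Genes of death and arrest that BCL6 is known to repress did not move together. CDKN1A (p21) had 0.569, 0.555, 0.501 and 2.17 kb in DMSO lists 1 and 2 and treated lists 1 and 2, and CDKN1B (p27) 2.45, 1.77, 2.17 and 4.83 kb; in both genes the groups overlapped. BCL2L11 (BIM), a BH3-only gene, had 12.9 and 15.1 kb in DMSO and 5.20 and 11.3 kb after 2 h of treatment. In the 4 h lists it had 17.4 and 15.5 kb, both above both DMSO lists. BBC3 (PUMA) had 6.79, 5.48, 5.42 and 5.97 kb, which overlap. At 4 h CDKN1A had 1.98 and 1.56 kb, CDKN1B 4.655 and 2.84 kb and BBC3 6.89 and 6.17 kb. PRDM1, IRF4 and BCL2 had no Ser2P peak in any list. FOXO3 had 0.233 kb in DMSO list 1, 1.07 kb in treated list 2 and none in the others. HEXIM1, an inhibitor of P-TEFb, had 4.52, 4.39, 3.51 and 5.42 kb, and CDK9 itself 1.67, 1.5, 0.768 and 2.74 kb. Cover also overlapped between groups at GAPDH, ACTB, EEF1A1 and BTG1, while CD74 had 13.9 and 13.8 kb in DMSO and 11.6 and 12.7 kb after treatment.

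Gene lists were read against the same counts over all genes, where 37.9% were lower and 1.71% higher with a median of -0.70. Of 24 germinal-centre B-cell genes with a peak in all 4 lists (of 30), 15 were lower in both treated lists and 0 higher, with a median log2 difference of -0.78. Of 31 of 32 ribosomal protein genes 14 were lower and 0 higher (median -0.42), and of 21 of 23 replication histone genes 4 were lower (median -0.31). Of 17 of 22 immediate-early genes 2 were lower (DUSP2, KLF6) and 1 higher (DUSP5), with a median of -0.07. DUSP5, a phosphatase of ERK, had 3.18 and 1.99 kb in DMSO and 3.69 and 4.68 kb after treatment. Of 23 BCL6 target genes 12 had no peak in any list, and of the 6 present in all 4 lists 1 was lower and 0 higher (median 0.26). Of 11 of 24 elongation factor genes 5 were lower (AFF4, SUPT4H1, SUPT16H, NELFB, NELFCD; median -1.33). Of 12 of 22 pro-apoptotic genes 3 were lower (BCL2L11, BAK1, DIABLO; median -0.28). Of 9 of 15 NF-kB genes 5 were lower (median -1.11), and of 13 of 18 MYC and growth genes 7 were lower (median -0.91). Genes of the serine 2 kinases and their regulators had a peak in all 4 lists at 7 of 11, of which 1 was lower (median -0.21). Of 8 of 18 termination factor and phosphatase genes 2 were lower (PCF11, PPP1R10; median -0.77). Of 8 of 16 BCL6 corepressor genes 3 were lower (HDAC5, HDAC7, TBL1XR1; median -0.89), and of 14 of 18 arrest genes 4 were lower (among them RBL1, MDM2 and CCNG2; median -0.22). Of 5 of 10 anti-apoptotic genes 2 were lower (BIRC2, BIRC3; median -0.78), and of 4 of 12 plasma cell genes 2 were lower (HSPA5, DERL3; median -0.49). Of 7 of 13 FOXO genes 4 were lower (median -0.63), and of 11 of 14 heat shock genes 4 were lower (median -0.37). In each of these 8 lists 0 members were higher in both treated lists. Of 6 of 12 class II antigen presentation genes 3 were lower and 0 higher (median -0.80). Among them CIITA, their master activator, had 17.5 and 12.3 kb in DMSO and 0.644 and 1.51 kb after treatment. No member of any list gained a start window, and XIAP lost one.

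Regions merged over the Ser2P lists were counted without reference to genes. Of 34758 regions with a peak in at least 1 of the 4 lists, 2714 were lost (7.81%) and 82 gained (0.236%). Without treated list 1 the direction turned, with 3379 gained and 2904 lost, and with equal numbers of top peaks 382 were gained and 571 lost. Of the gained regions 36.6% lay at gene starts, of the lost 6.85%, and of all measured regions 19.8%. Regions at a 3′ end and not at a start made up 7.32% of the gained, 28.4% of the lost and 17.7% of all. Ser5P peaks of both treated lists lay in 61.0% of the gained regions, 11.1% of the lost and 27.5% of all. For Ser5P peaks of both DMSO lists these shares were 32.9%, 19.9% and 24.4%. CDK9 peaks of both treated lists lay in 24.4% of the gained with either antibody. They lay in 6.93% (ab239364) and 9.80% (CST2316S) of the lost, and in 14.5% and 11.9% of all. Regions with a peak in all 4 Ser2P lists were above the gained ones. There the shares were 88.4% for treated Ser5P, and 51.7% (ab239364) and 32.8% (CST2316S) for treated CDK9. These shares describe the regions and carry no test. Of the gained regions 31 had a peak in both 4 h lists and 24 in neither, and of the lost 320 and 1624.

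Outside protein-coding genes, the gained regions of best rank lay near ADAMTSL4, ID2, RGS1, ID1 and BLNK. ID2 and ID1 encode inhibitors of basic helix-loop-helix factors: chr2:8686891-8687291 lay 2.43 kb from ID2 and chr20:31608175-31609201 lay 1.66 kb from ID1. BLNK is the linker below the B-cell receptor, 8.02 kb from chr10:96279588-96280229. RGS1, a regulator of G-protein signalling, was 35.7 kb from chr1:192538760-192540032, which overlaps a long noncoding RNA gene. The best-ranked lost region, chr7:5517213-5519956, lay over the noncoding gene LOC221946, 3.403 kb from FBXL18 and 7.19 kb from ACTB, with the authors' fold enrichment at 23.4 and 21.5 in the DMSO lists. ACTB itself had 6.49, 6.07, 5.13 and 6.43 kb of cover. The regions chr11:59256046-59258345, chr11:59258647-59259598 and chr11:59261061-59264546 lay 43.1 to 48.1 kb from MPEG1, over pseudogenes, and the last, chr2:88808127-88808654, was 57.2 kb from RPIA.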

How the data were processed

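Chromatin immunoprecipitation with sequencing was analysed from the deposited narrowPeak lists, 1 per sample. The submitters' processing notes name MACS2, Bowtie2, Trim Galore and FastQC, and further Picard, SAMtools, deepTools and bedtools, for the builds hg38 and dm6. For their versions, the control libraries and any blacklist, the sources used here give nothing. In each deposited list a peak has a fold enrichment, the authors' ratio over background, which was not compared between lists here. Each peak also has a −log10 p and a −log10 q from the authors. These ranked peaks inside their own list and set an alternative threshold (−log10 q at or above 5). No column gives reads, so depth is unknown, and no interval from counting is given. In the 4 lists, 6 peaks on unplaced contigs (4, 1, 0 and 1) were left out.

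Genes were 19974 protein-coding genes on chromosomes 1 to 22 and X of a RefSeq table (GRCh38.p14, the same build as hg38). Strand came from the RefSeq promoter table, which listed a promoter for 15812 of them. Promoter sequences came from the same table. A peak counted where it overlapped a window by at least 1 bp, and regions were merged over the 6 Ser2P lists. Neighbouring genes can share a peak. Groups were compared by exact two-sided permutation of the 4 lists, with Python 3.11.15, NumPy 2.4.6, pandas 2.3.3 and matplotlib 3.10.9. The calls were checked on simulated data, where all planted gains were found at full detection. How they behave at the unequal lengths of these lists is not reported.

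Named genes were 20 fixed genes, the 10 gained and 10 lost genes of best mean rank within the lists, the 10 with the widest DMSO cover, the 5 largest differences each way, gained or lost members of the gene lists, and the 5 best gained and 5 best lost regions outside genes. The members and lists were chosen with earlier results of these data known. The start and 3′ windows, the replicate 2 pair and the genes of the 3′ paragraph were chosen after values were seen. Some genes that this rule names are left out of the text.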

Additional observations from a re-analysis of the deposited data

How the results depend on the processing

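Nothing here passed a threshold, since 2 against 2 lists cannot give p below 0.3333 by the exact permutation test. The start side share was higher in both treated lists under every alternative run (differences of 7.07 to 12.1 percentage points). Of the values under alternatives, 103 kept their direction or stayed within 1.5 times the count, 37 moved and 8 turned direction. The 103 include all values with the replicate number as a block, which repeat the main values by construction. The cause of the moves and turns was not tested. At −log10 q of at least 5, 46 regions were gained and 1162 lost, 347 3′ windows were lost, and the log2 width difference was -0.0497. With equal numbers of top peaks, 327 genes were gained and 186 lost, 382 regions gained and 571 lost, 253 start windows gained and 63 lost, and 22 3′ windows gained and 192 lost. There the log2 difference was 0.13 for genes with a peak and -0.54 for peak width. Between the replicate 2 lists alone, an alternative added after seeing the data as were all those for start and 3′ windows, genes with a peak differed by 0.27 and cover at genes shared by those lists, a larger set of genes, by 0.29. The depth of the lists is unknown and limits every count.

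Leaving out each list in turn gave 49 to 640 genes gained and 428 to 3038 lost, 141 to 3379 regions gained and 2904 to 16229 lost, 53 to 625 start windows gained and 185 to 1765 lost, and 6 to 152 3′ windows gained and 568 to 1494 lost. The log2 difference ran from -0.13 to 0.15 for peak width, from -0.996 to 0.0606 for genes with a peak and from -1.75 to -0.44 for list length. The highest gains came without treated list 1, where gained genes, regions and start windows outnumbered lost ones; the most lost genes and start windows came without treated list 2, and the most lost regions and 3′ windows without DMSO list 2.

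With the replicate number as a block, the mean differences stay as they were (the start side share 9.40 points, the share at gene ends 13.6 points), with an exact permutation p of 0.5 over 4 relabellings. The labels do not say that the numbers pair the samples. The replicate differences correlated at 0.191 over 38571 regions and at -0.0466 over 3795 genes. The 38571 regions include those with a peak at 4 h only, beyond the 34758 with a peak in the 4 lists. All regions and genes were measured in the same lists and are not independent of each other.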
